A study of Mus musculus with 8 samples.

Results

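The genes described here encode the enzymes that turn glucose into pyruvate and lactate, those of the pentose phosphate pathway, the pyruvate dehydrogenase complex that passes pyruvate to the mitochondrial cycle, and a few regulators of these routes. There are 34 of them, chosen by pathway role, with transporters left out. Each was read through the probe sets annotated to that gene alone, and the probe set with the highest mean intensity over all arrays stands for the gene wherever a single value is given. Of the 34 genes, 31 had a probe set of their own, 71 probe sets in all among the 45101 of the table. Gpi1, Eno1 and G6pdx had none and are not analysed here, so glucose phosphate isomerase, the main enolase and the entry enzyme of the pentose phosphate pathway are missing from what follows. Gapdh was read only through 3 control probe sets of the manufacturer, which were not part of the test. The remaining 30 genes, with 66 probe sets, were among the 27348 probe sets and 12823 genes tested.

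The 8 arrays cover 4 groups of 2: naive and activated CD8+ T cells, the killer lineage of T lymphocytes, from the spleens of C57BL/6 wild-type mice and of knockout mice lacking Elf4, an ETS-family transcription factor. Naive cells were left untreated. Activated cells were cultured for 3.5 days on plates coated with anti-CD3, with anti-CD28 added, in RPMI medium with serum and T-stim. Anti-CD3 acts through the T cell receptor and anti-CD28 through the costimulatory receptor CD28. The labels write the knockout as Elf-/- and do not state how it was made, the age or sex of the animals, whether mice were pooled, or whether the 2 arrays of a group came from separate mice, so p-values measure the spread between these arrays, which may be technical. The descriptions of both naive wild-type arrays name the same array file, but the deposited values of the pair differ, and both were used.

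Glycolysis turns glucose into pyruvate through an early phase that spends ATP on hexose sugars and a later phase that recovers ATP and NADH from trioses. Lactate dehydrogenase then restores NAD+ by reducing pyruvate to lactate. The pentose phosphate pathway branches off after the first step and makes NADPH and the ribose of nucleotides, and the pyruvate dehydrogenase complex makes acetyl-CoA unless its kinases switch it off. Resting T cells are known for low glucose use and activated T cells for high glycolysis with lactate release even where oxygen is present.

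The arrays fell into a naive and an activated set. Correlations of log2 intensity were 0.94 to 0.965 between the 2 arrays of a group, 0.936 to 0.959 between genotypes within a state, and 0.799 to 0.831 between states. Several other measures changed with the state. The 3′ to 5′ ratio of the Actb control probe sets, a measure of how complete the labelled RNA was, was 1.96 to 2.5 on the naive arrays and 5.9 to 11.1 on the activated ones. Xist, the RNA of the inactive X chromosome, read 60.3 to 172.2 on the naive arrays and 7703 to 10011 on the activated arrays, while Y-linked Eif2s3y went from 2537 to 5146 down to 2.93 to 44, so the naive cells carry a male pattern and the activated cells a female one. The naive arrays and the activated arrays also have different series names in the labels. Activation, sex, RNA integrity and array series therefore cannot be told apart, and each difference between naive and activated arrays given here is a difference between these 2 sets of arrays.

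The summed intensity of 9 measured CD8 T cell markers ran from 97801 to 125733 on the naive arrays and from 31842 to 39802 on the activated arrays, and 9 of 9 fell in both genotypes. Cd8a itself read 14239.7 to 17150.2 naive and 4288 to 6289.5 activated. The sum of 11 B cell markers was 24390 to 34281 naive and 4868 to 7263 activated, with 10 of 11 lower in wild type and 9 of 11 in the knockout. Of all genes, 24.1% were called lower in wild type and 26.1% in the knockout. Ighm, at 18632 to 25469, made most of the naive B cell sum. Every other measured B cell marker was highest on the second naive knockout array, with Ms4a1 at 2468 beside 965 to 1262 on the other naive arrays. Granulocyte markers summed to 419 to 736.8 on the naive wild-type arrays and 4669 to 19510 on the naive knockout arrays, and to 230.8 to 402.1 on the activated arrays, where the defining genes S100a8 and S100a9 were at or under 46.3. Macrophage markers summed to 2625 to 3054 on the naive wild-type, 4279 to 7601 on the naive knockout and 671.2 to 985.2 on the activated arrays. Natural killer cell markers summed to 2904 to 4372, 6567 to 9435 and 3411 to 3767 on the same sets of arrays, and platelet markers to 901.3 to 955.2, 1376 to 1746 and 3769.5 to 4899. On the naive knockout arrays the natural killer sum held Gzma at 2376 and 4730 and Eomes at 2814 and 3132, and Ncr1 read 8.24 and 45.1. All 6 tested natural killer markers read higher there than in naive wild type. The platelet sum of the activated arrays held Pf4 at 2316 to 2944 and Ppbp at 622.4 to 1037. Of 6 tested platelet markers 2 were called higher in each genotype, beside 21.3% and 21.9% of all genes, and Itgb3 lower in the knockout. The part of these cell types in the results below was not tested. In bulk RNA, fewer cells of a type and less RNA per cell cannot be told apart.

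Across activation of wild-type cells, most of the glycolytic enzymes rose, and 2 pentose phosphate enzymes and a pyruvate dehydrogenase kinase fell. Of the 30 tested genes, 19 were higher and 3 lower in activated than in naive wild-type cells at an adjusted p under 0.05 (limma on log2 of intensity plus 16, Benjamini-Hochberg adjusted over all probe sets). Over all probe sets tested, 39.2% passed in either direction, 17.4% higher and 21.8% lower, and with 1 probe set per gene, the unit in which the members are counted, 45.4% passed, 21.3% higher and 24.1% lower. Centring each array on its median moved the higher share of all calls from 44.4% to 55.2%. The median log2 difference of the 30 genes was 1.07, or 0.63 with all probe sets of a gene averaged, beside −0.12 over all genes. The array values of the 2 states did not overlap for 29 of the 30, beside 68.7% of all probe sets and 72% of all genes.

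In knockout cells 20 of the 30 were higher and 2 lower after activation, where 41.7% of all probe sets passed, 18.2% higher and 23.5% lower, and with 1 probe set per gene 48.1%, 21.9% higher and 26.1% lower. The median log2 difference was 1.39, beside −0.12 over all genes. Naive and activated knockout values did not overlap for 26 of the 30, against 71.5% of all probe sets and 75.2% of all genes. The same 8 genes failed the test in both genotypes: Hk1, Pfkm, Bpgm, Ldhb, Pfkfb3, Pfkfb4, Pdha1 and Pdhb. Of these, Hk1, Bpgm, Ldhb, Pfkfb3 and Pdhb passed under other settings, given with each gene. With the Actb 3′ to 5′ ratio added to the model, 4 of the 19 higher calls in wild type were kept (Hk2, Tpi1, Pgam1 and Pkm) and none of the 3 lower, and in the knockout none were kept, while over all probe sets 484 and 0 passed. The differences of the called genes kept their sign with the ratio in the model for 22 of 22 in wild type and 21 of 22 in the knockout, all but Rpia, and 16 and 13 of them were within 1.5 times the value without it. Hk2 in the knockout was then 5.19 (adjusted p = 0.159) and Pfkl in wild type 1.38 (adjusted p = 0.199), while Pgk1 was 0.54 in wild type and 0.30 in the knockout. The median over the 30 genes was 1.27 in wild type and 1.49 in the knockout. The ratio was 1.96 to 2.5 on the naive and 5.9 to 11.1 on the activated arrays. Within a group it differed most between the 2 activated knockout arrays, at 7.44 and 11.1. This fit therefore cannot separate the ratio from the state, and neither kept nor lost calls and signs show the part of RNA integrity.

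**Figure D1:**
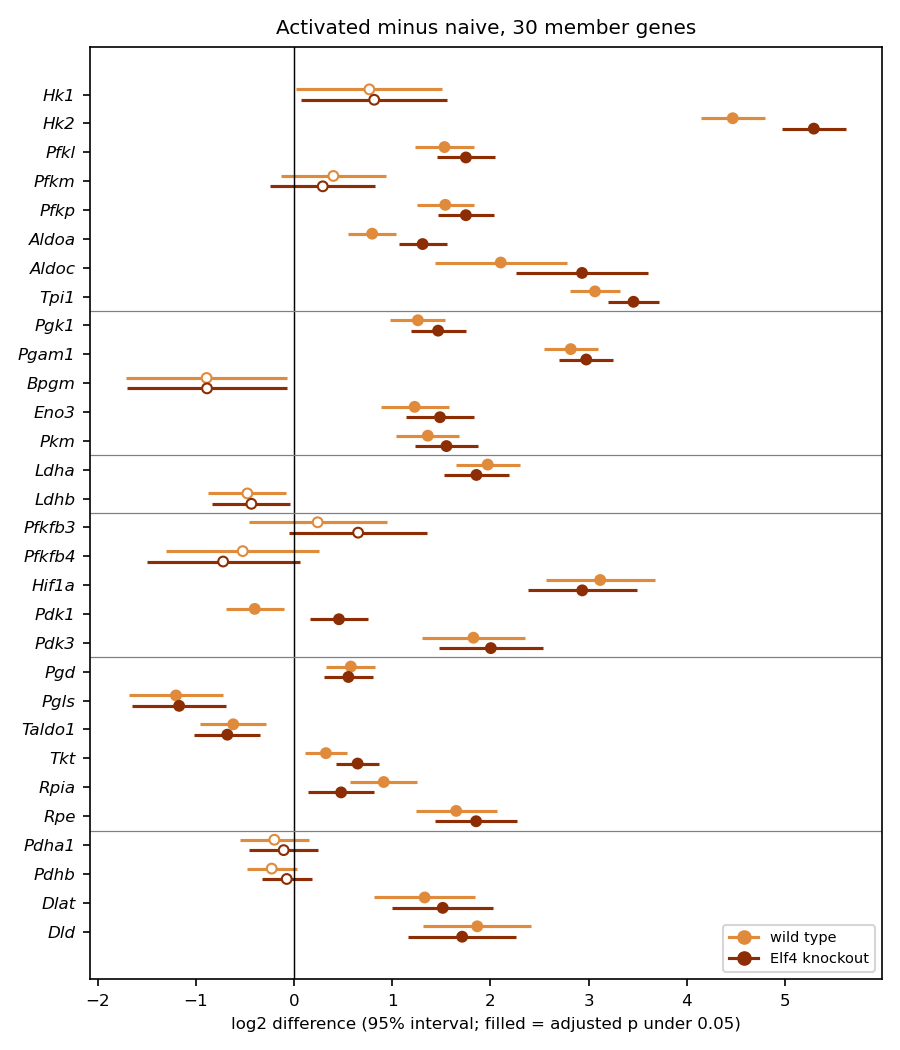
Log2 difference, activated minus naive, of each of the 30 tested genes in wild-type and in knockout cells, with the 95% interval of the limma fit (2 arrays per group); filled symbols passed an adjusted p of 0.05. Hk2 lies farthest to the right in both genotypes, at 4.47 in wild type and 5.29 in the knockout, and Pgls farthest to the left, at −1.20 and −1.17.

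The upper part of glycolysis contained the gene with the widest change. Hk2, the inducible hexokinase that traps glucose as glucose 6-phosphate, rose 23.1-fold in mean intensity in wild type and 42.1-fold in the knockout. In the order naive wild type, naive knockout, activated wild type and activated knockout, which is kept below for every gene, Hk2 (probe set 1422612_at) read 343.6 and 327, then 208.4 and 221.8, then 7611 and 7902, then 8853 and 9247. Every activated array lay above every naive array. The log2 difference was 4.47 (SE 0.15, adjusted p = 2.52e-08) in wild type and 5.29 (SE 0.15, adjusted p = 7.88e-09) in the knockout.

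Hk1, the constitutive hexokinase, read 1781 and 2525, then 2073 and 3359.8, then 2822 and 4643, then 6409 and 3383. The activated arrays were the higher ones in each genotype, but the 2 arrays of each group lay far apart and the log2 difference of 0.77 (SE 0.34, adjusted p = 0.0969) in wild type did not pass. In the knockout the difference was 0.82 (SE 0.34, adjusted p = 0.0755), and it passed without the second naive knockout array, at 1.16 (adjusted p = 0.0424), and without the second activated one, at 1.28 (adjusted p = 0.0237). With arrays centred on their medians Hk1 passed in both genotypes (adjusted p = 0.0324 in wild type and 0.0338 in the knockout), and in wild type also with only the 4 wild-type arrays in the fit (adjusted p = 0.0438).

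The 3 phosphofructokinase genes, whose products catalyse the committed step of glycolysis, were 2 that rose and 1 that did not pass. Pfkl, the liver-type subunit, read 1288 and 1356, then 1378 and 1317, then 3778 and 3925, then 4495 and 4644, and its log2 difference was 1.53 (SE 0.14, adjusted p = 7.24e-06) in wild type. Pfkp, the platelet-type subunit, read 3955 and 4108, then 3764 and 4342, then 10796 and 12798, then 13909 and 13363, a log2 difference of 1.54 (SE 0.13, adjusted p = 5.51e-06). Both rose to about the same extent, and no activated array reached down to a naive one. Pfkm, the muscle-type subunit, read 621.3 and 454.9, then 858.7 and 587.2, then 648 and 770.9, then 939 and 812.1 and did not pass, at 0.40 (SE 0.24, adjusted p = 0.224). Its naive and activated knockout arrays overlapped.

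Aldolase splits fructose 1,6-bisphosphate into a pair of trioses. Aldoa, the form found in most tissues, was already bright in naive cells and read 11601 and 10783, then 8968 and 8315, then 18392 and 20500.1, then 21136 and 21709. It rose by 0.80 (SE 0.11, adjusted p = 0.000192) in wild type and 1.31 (SE 0.11, adjusted p = 4.8e-06) in the knockout. Aldoc, the brain-type form, was dim in naive cells and read 167.1 and 171.3, then 124.9 and 195.8, then 589.4 and 1032, then 1421 and 1195. Its log2 difference was 2.11 (SE 0.30, adjusted p = 0.000255) in wild type and 2.93 (SE 0.30, adjusted p = 2.1e-05) in the knockout. Both aldolase genes therefore rose in both genotypes on their brightest probe sets. The dimmer Aldoc probe set did not pass, at 0.97 (adjusted p = 0.371) in wild type and 1.09 (adjusted p = 0.302) in the knockout.

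Tpi1 (1452927_x_at), triose phosphate isomerase, which lets both trioses enter the lower pathway, had the third largest rise in wild type. It read 2585 and 2669, then 2661 and 2404, then 20939 and 23314, then 28203 and 27661. The log2 difference was 3.07 (SE 0.12, adjusted p = 3.94e-08) in wild type and 3.46 (SE 0.12, adjusted p = 1.66e-08) in the knockout. The naive values were tightly grouped whatever the genotype, and no activated array came near them.

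**Figure D2:**
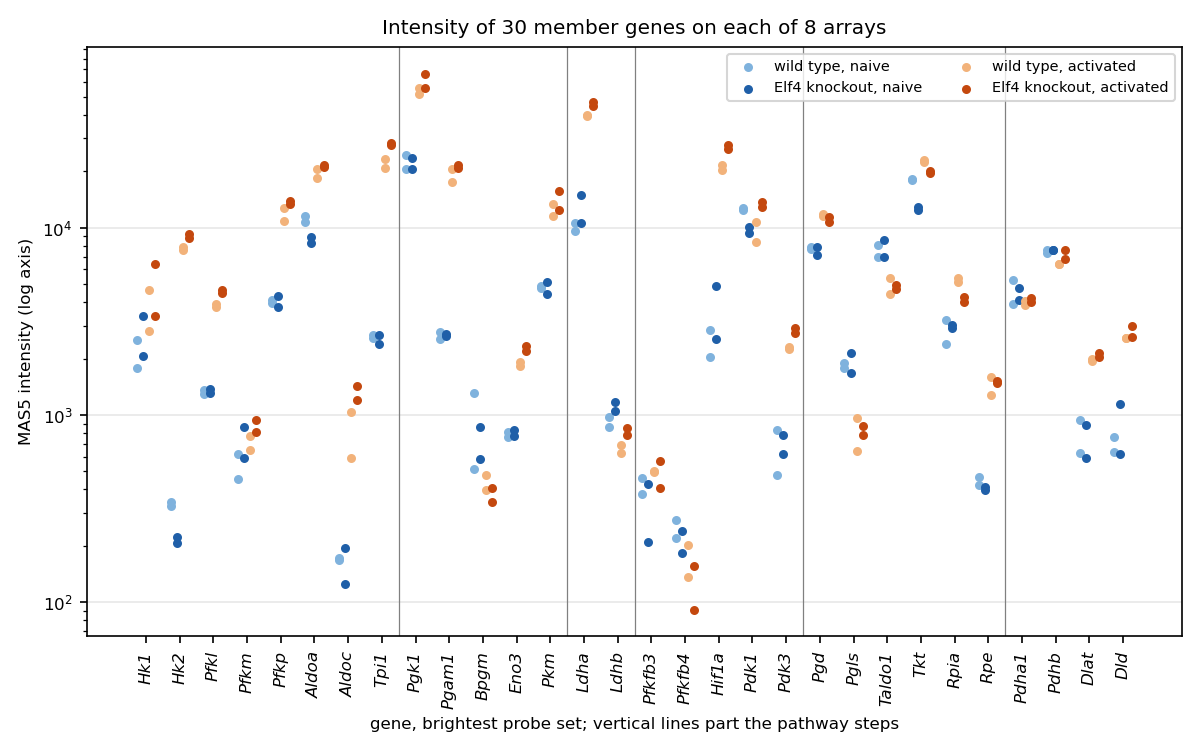
Intensity on each of the 8 arrays (log axis, deposited MAS5 units) of the 30 tested genes, 1 column per gene with each array as a point, coloured by group, and vertical lines between the pathway steps. Hk2 and Tpi1 separate the naive from the activated arrays widely, while Ldhb and Pdha1 change little.

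In the lower part of glycolysis, 4 of 5 tested genes rose in both genotypes. Of all genes, 21.3% rose in wild type and 21.9% in the knockout. Gapdh, the NADH-forming glyceraldehyde phosphate dehydrogenase, was read by the 3′, middle and 5′ control probe sets. The 3′ probe set read 20030.2 and 21553, then 18362 and 17549, then 41624 and 40667, then 44202 and 51109. The 5′ probe set read 4955 and 4871, then 4357 and 5193, then 8619 and 7614, then 8194 and 6763. All activated arrays stood above all naive arrays on both. With the control probe sets added to the test, a choice made after seeing the data, the wild-type log2 differences were 0.99 at the 3′ end, 1.20 in the middle and 0.72 at the 5′ end, with adjusted p-values of 3.11e-05, 8.04e-06 and 0.00221. The knockout values were 1.40, 1.59 and 0.64, with adjusted p-values of 2.12e-06, 9.58e-07 and 0.00406. The Gapdh difference was smallest at the 5′ end in both genotypes, and its 3′ to 5′ ratio was 3.38 to 4.42 on the naive arrays and 4.83 to 7.56 on the activated arrays.

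**Figure D3:**
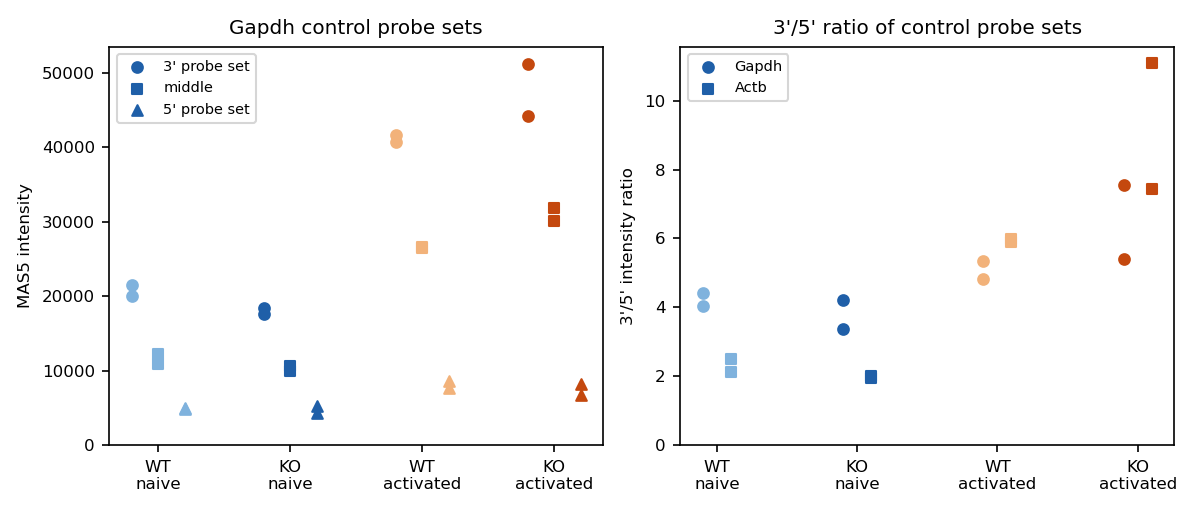
Intensity of the 3 Gapdh control probe sets (5′, middle and 3′) on each array, and the 3′ to 5′ ratios of Gapdh and Actb on the same arrays. All 3 Gapdh probe sets are higher on the activated arrays, and both ratios are also higher there.

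Pgk1, phosphoglycerate kinase, the first ATP-forming step, read 20627 and 24459, then 23689.7 and 20502, then 55829 and 51976, then 56040.1 and 66332. It rose by 1.26 (SE 0.13, adjusted p = 1.94e-05) in wild type, and its 2 dimmer probe sets rose by 1.72 and 3.71. Pgk1 lies on the X chromosome, as do Pdk3 and Pdha1, and the sex pattern of the arrays changed with the state. Pgam1 (1426554_a_at), phosphoglycerate mutase, read 2554 and 2789.8, then 2647 and 2696, then 17430.1 and 20541, then 20751 and 21505. It rose by 2.82 (SE 0.12, adjusted p = 7.21e-08) in wild type and 2.98 (SE 0.12, adjusted p = 4.66e-08) in the knockout, the fourth largest rise of the 30 genes in wild type.

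Eno3, the muscle-type enolase and the one enolase measured among the 34 genes, read 814.7 and 760.4, then 769.9 and 829.8, then 1907 and 1823, then 2338 and 2199 and rose by 1.23 (SE 0.16, adjusted p = 0.000107) in wild type. Pkm (1417308_at), pyruvate kinase, the second ATP-forming step, read 4889 and 4748, then 4397 and 5112, then 11558 and 13316, then 15622 and 12422 and rose by 1.36 (SE 0.14, adjusted p = 2.86e-05). A splice form of Pkm could not be assigned from a gene-level probe set. Bpgm, which makes the 2,3-bisphosphoglycerate of red cells, was the gene of this phase that did not pass. It read 1309.5 and 517.3, then 582 and 858.9, then 398 and 480.7, then 343.7 and 409.3, with a log2 difference of −0.89 (SE 0.37, adjusted p = 0.0809) in wild type that did not pass. Without the second naive wild-type array, far below the first, the difference was −1.55 (adjusted p = 0.00195). In the knockout, at −0.89 (SE 0.37, adjusted p = 0.0785), it passed under 4 other settings (adjusted p = 0.0104 to 0.0403). The defining red cell genes Hba-a1, Alas2 and Slc4a1 were at or under 161.9 on every array, and the sum of 8 erythroid markers, 1646 to 2357 naive and 20671 to 26687 activated, held the transferrin receptor gene Tfrc at 1091 to 1643 and 19944 to 26222.

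Of the 2 lactate dehydrogenase genes, Ldha rose and Ldhb did not pass. Ldha (1419737_a_at), whose subunit favours the reduction of pyruvate to lactate, read 9593 and 10642, then 10572 and 14978, then 40117 and 39280.4, then 44519 and 46739.7. It rose by 1.97 (SE 0.15, adjusted p = 2.38e-06) in wild type and 1.86 (SE 0.15, adjusted p = 3.26e-06) in the knockout. Ldhb (1416183_a_at), whose subunit favours the reverse reaction, read 978.6 and 862.7, then 1055 and 1171, then 624.5 and 689.4, then 781.3 and 855.6. All activated wild-type values lay under the naive ones, as in the knockout, but the log2 differences of −0.48 (SE 0.18, adjusted p = 0.0577) and −0.44 (SE 0.18, adjusted p = 0.076) missed the threshold. The wild-type one passed when only probe sets at or above the array median on 6 of 8 arrays were tested (adjusted p = 0.0449). Over 3 further Ldhb probe sets the wild-type difference ran from −0.49 to −0.25.

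Among the regulators, Hif1a (1427418_a_at), the oxygen-regulated factor that drives many glycolytic genes, had the second largest rise in wild type. It read 2849 and 2038, then 2545 and 4863, then 20436 and 21654, then 27634 and 26413. The log2 difference was 3.12 (SE 0.25, adjusted p = 3.9e-06) in wild type and 2.94 (SE 0.25, adjusted p = 5.42e-06) in the knockout, and 3 of its 4 probe sets passed in wild type. No activated array came near the naive ones, of which the second knockout array was the highest.

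Since Hif1a binds promoters at the core RCGTG (ACGTG or GCGTG), the letters upstream of these genes were read. The promoters of Hk2, Tpi1, Pgk1, Ldha and Ldhb are shown, the first 4 as genes that rose and Ldhb as the lactate dehydrogenase gene that did not. Each is the 250 bases before the start of the first listed RefSeq transcript on assembly GRCm38.p6, 5′ to 3′ on the gene's strand, with ACGTG or GCGTG on either strand in capitals. They lie at chr6:82774455-82774704 (minus), chr6:124814159-124814408 (minus), chrX:106186850-106187099 (plus), chr7:46845554-46845803 (plus) and chr6:142507958-142508207 (minus).
Hk2: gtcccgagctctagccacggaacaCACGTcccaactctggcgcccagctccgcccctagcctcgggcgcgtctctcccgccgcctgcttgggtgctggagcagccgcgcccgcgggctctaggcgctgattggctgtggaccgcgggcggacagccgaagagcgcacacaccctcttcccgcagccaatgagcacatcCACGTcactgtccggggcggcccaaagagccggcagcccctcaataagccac
Tpi1: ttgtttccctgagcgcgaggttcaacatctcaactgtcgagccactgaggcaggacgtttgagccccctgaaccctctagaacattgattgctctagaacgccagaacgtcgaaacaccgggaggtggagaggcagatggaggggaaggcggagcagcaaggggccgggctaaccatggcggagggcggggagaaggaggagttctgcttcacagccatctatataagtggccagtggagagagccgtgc
Pgk1: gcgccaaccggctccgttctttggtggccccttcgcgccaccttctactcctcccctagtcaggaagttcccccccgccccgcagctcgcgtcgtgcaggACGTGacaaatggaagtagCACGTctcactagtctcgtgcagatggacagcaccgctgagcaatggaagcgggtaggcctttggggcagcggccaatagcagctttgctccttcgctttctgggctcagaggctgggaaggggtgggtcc
Ldha: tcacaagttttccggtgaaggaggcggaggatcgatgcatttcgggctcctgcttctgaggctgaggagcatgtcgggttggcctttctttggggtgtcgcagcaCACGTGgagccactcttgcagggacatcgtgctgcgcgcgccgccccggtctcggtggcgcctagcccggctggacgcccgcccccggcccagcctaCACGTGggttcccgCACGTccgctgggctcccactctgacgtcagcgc
Ldhb: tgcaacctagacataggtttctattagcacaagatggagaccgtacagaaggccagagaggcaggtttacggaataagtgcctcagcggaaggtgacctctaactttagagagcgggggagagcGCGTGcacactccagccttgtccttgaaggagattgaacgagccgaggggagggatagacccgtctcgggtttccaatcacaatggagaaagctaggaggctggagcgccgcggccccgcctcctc

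The Hk2 stretch held 2 cores, Pgk1 2, Ldha 5 with 2 full CACGTG palindromes, each of which counts on both strands, and Ldhb 1. The Tpi1 stretch held 0. Over windows of 300 bases, from 250 before to 50 after a start, ACGTG stood in 15 of the 34 genes (44.1%) and in 21.8% of all 27025 genes, and GCGTG in 23 (67.6%) and 35.2%. Either core stood in 28 (82.4%) and in 46.7% of all genes. Against the tested genes with a promoter the gap was smaller: 25 of the 30 tested members (83.3%) and 65.0% of 10372 genes. The median GC content was 60.8% for the members, 60.3% for tested genes and 52.8% for all genes. CACGTG, which overlaps ACGTG, stood in 4 members (11.8%) and in 8.1% of all genes, or in 13.3% of tested members and 11.3% of tested genes. The exact sequence CCGGAAGT, an ETS motif, stood in 0 of the 34 members, 4.3% of all genes and 8.6% of tested genes. Other forms of the ETS motif were not searched. A motif match is a stretch of letters, and binding was not measured here.

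The kinases that switch pyruvate dehydrogenase off split. Pdk3 read 831.2 and 476.9, then 778.8 and 616.1, then 2257 and 2296, then 2908 and 2749 and rose by 1.83 (SE 0.24, adjusted p = 0.000126) in wild type. Pdk1 (1423747_a_at) read 12355 and 12691, then 9324 and 10088, then 8343 and 10776, then 13719.5 and 12937. It fell by 0.40 on the log2 scale in wild type (SE 0.13, adjusted p = 0.0349) and rose by 0.46 (SE 0.13, adjusted p = 0.0179) in the knockout. The wild-type arrays went down and the knockout arrays up, without overlap in either genotype. Both calls were lost with some arrays left out, in wild type for 5 of 8 arrays (adjusted p = 0.053 to 0.322) and in the knockout for 3 (adjusted p = 0.0565 to 0.103). The test of that difference between genotypes did not pass, at 0.86 (SE 0.19, adjusted p = 0.142).

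The other Pdk1 probe sets did not show the rise. All 4 fell in wild type, by up to 1.57 on the log2 scale at the dimmest, and in the knockout 2 of them fell, by 0.90 and 1.41, while 1 did not pass at −0.12. The direction of Pdk1 in knockout cells therefore depends on the probe set.

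Pfkfb3 and Pfkfb4 make and break fructose 2,6-bisphosphate, the activator of phosphofructokinase. Pfkfb3 read 461.9 and 380.7, then 210.4 and 428.1, then 500.9 and 495.9, then 569.6 and 408 and did not pass, at 0.24 (SE 0.32, adjusted p = 0.593) in wild type. In the knockout it passed, at 1.14 (adjusted p = 0.0142), without the second naive array, and at 0.88 (adjusted p = 0.0475) under quantile normalization. Its dimmer probe set read lower after activation, at −1.01 (SE 0.42, adjusted p = 0.0826) in wild type and −1.51 (SE 0.42, adjusted p = 0.0144) in the knockout, where it passed. Pfkfb4 read 274.2 and 220.5, then 182.1 and 239.5, then 136.9 and 201.5, then 91.4 and 156.9 and did not pass either, at −0.52 (SE 0.35, adjusted p = 0.276).

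The pentose phosphate enzymes moved in both directions. Of 6 tested, 4 rose and 2 fell, the same ones in each genotype. Of all genes, 21.3% rose and 24.1% fell in wild type, and 21.9% and 26.1% in the knockout. Some of the member calls were lost with 1 array left out, as given with each gene. Tkt (1439443_x_at), transketolase, which links the pathway back to glycolysis, read 18301 and 17924, then 12923 and 12487, then 22905 and 22435, then 19616 and 20192. It rose by 0.32 (SE 0.10, adjusted p = 0.0224) in wild type and 0.65 (SE 0.10, adjusted p = 0.000323) in the knockout. The wild-type call was lost when any 1 wild-type array was left out (adjusted p = 0.0591 to 0.128). Pgd, which makes NADPH in the oxidative arm, read 7728 and 7901, then 7924 and 7124, then 11483 and 11869.6, then 10723 and 11351 and rose by 0.58 (SE 0.11, adjusted p = 0.00187) in wild type. Of its other 3 probe sets the dimmest rose too, by 1.05, while the next brightest did not pass, at 0.28 (adjusted p = 0.133), nor did the last, at 0.04.

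The 2 enzymes that interconvert the pentose phosphates rose as well. Rpe, the epimerase, read 423 and 464.1, then 396.6 and 413.6, then 1592 and 1277, then 1487 and 1526 and rose by 1.65 (SE 0.19, adjusted p = 4.67e-05) in wild type. Rpia, the isomerase that yields ribose 5-phosphate for nucleotides, read 2400.1 and 3225, then 3005 and 2928, then 5145 and 5367, then 4016 and 4266 and rose by 0.91 (SE 0.15, adjusted p = 0.000756). In the knockout Rpia rose by 0.48 (SE 0.15, adjusted p = 0.0283), a call lost without any 1 of 6 of the arrays (adjusted p = 0.0521 to 0.145), and its activated knockout arrays lay under its activated wild-type arrays.

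The 2 that fell were Pgls and Taldo1. Pgls (1417722_at), the lactonase that follows the first oxidation, read 1787 and 1889, then 2130.3 and 1665, then 966.5 and 643.3, then 874.9 and 782.5. Its log2 difference was −1.20 (SE 0.22, adjusted p = 0.0011) in wild type and −1.17 (SE 0.22, adjusted p = 0.00122) in the knockout, the largest fall of any of the 30 genes. Taldo1, transaldolase, the partner of transketolase in the non-oxidative arm, read 7006 and 8115, then 6942 and 8600.1, then 4435 and 5413, then 4687 and 4951. It changed by −0.62 (SE 0.15, adjusted p = 0.00762) in wild type and −0.68 (SE 0.15, adjusted p = 0.00423) in the knockout. Without the first activated wild-type array its wild-type difference was −0.48 (adjusted p = 0.0922). Transketolase and transaldolase transcripts, whose enzymes act in the same arm, differed in direction, with no overlap between naive and activated arrays of a genotype in either gene.

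The pyruvate dehydrogenase complex changed in part. The 2 subunits of its first enzyme did not pass in either genotype. Pdha1 read 5273 and 3928, then 4122 and 4753, then 3879.5 and 4038, then 4228 and 3996, a log2 difference of −0.20 (SE 0.16, adjusted p = 0.35) in wild type, with overlapping arrays. Pdhb read 7369 and 7589, then 7618 and 7585, then 6403 and 6365, then 6837 and 7619, at −0.23 (SE 0.11, adjusted p = 0.144). Under quantile normalization Pdhb was called lower, at −0.33 (adjusted p = 0.0243) in wild type and −0.29 (adjusted p = 0.0419) in the knockout. The dimmer Pdha1 probe set rose in the knockout, by 0.63 (SE 0.17, adjusted p = 0.0129).

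The other 2 subunits rose. Dlat, the acetyltransferase core, read 629.2 and 945, then 884.7 and 589, then 1991 and 1936, then 2046 and 2139 and rose by 1.33 (SE 0.23, adjusted p = 0.000982) in wild type. Dld, the dihydrolipoamide dehydrogenase shared with other mitochondrial complexes, read 760.3 and 636.3, then 616.6 and 1147, then 2567 and 2588, then 2984 and 2614 and rose by 1.87 (SE 0.25, adjusted p = 0.000152). In the knockout the rises of these 2 genes were 1.51 and 1.71.

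Several probe sets of a gene did not always read alike. Of 18 genes with more than 1 tested probe set, 3 had calls in opposite directions in wild type. Aldoa rose on 4 probe sets and fell on the fifth, at −1.03. Pfkl rose on 2 and fell on the dimmest, at −1.26, and Dlat rose on 2 and fell on the third, at −0.80. Both falls, of Pfkl and Dlat, were also called in the knockout. For 7 of the 30 genes, Aldoa, Tpi1, Pgk1, Bpgm, Pgd, Tkt and Dlat, the brightest probe set has a name ending in _x_at or _s_at, which marks possible binding of related transcripts, so reads of pseudogenes or paralogs cannot be separated there.

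**Figure D4:**
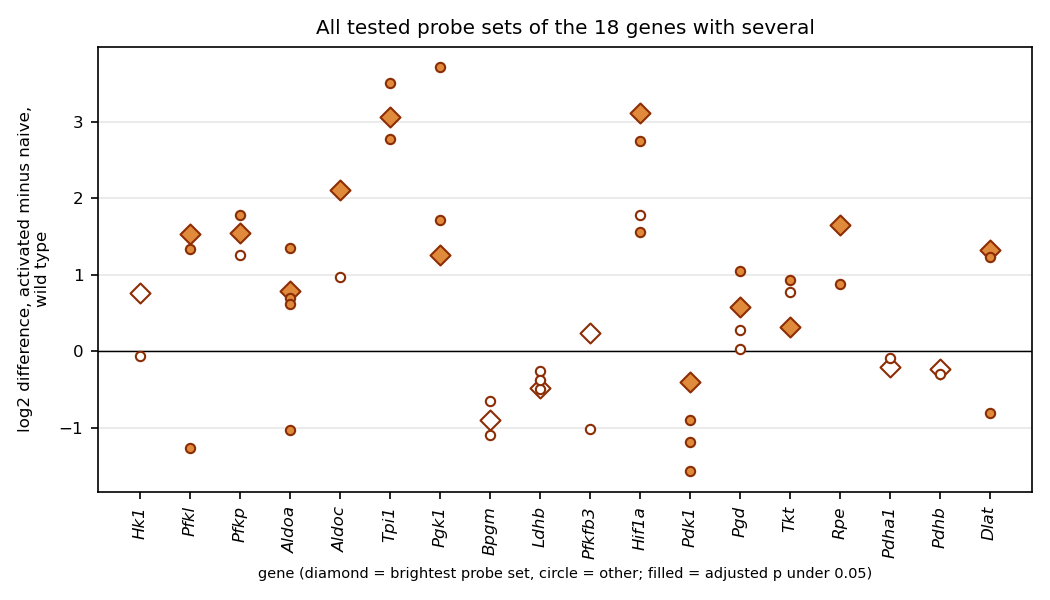
Log2 difference, activated minus naive, in wild-type cells of every tested probe set of the genes with more than 1, with each probe set as a point and the brightest marked. Tpi1, Pgk1 and Hif1a have all points above 0 and Pdk1 all below, while Aldoa, Pfkl and Dlat have calls on both sides of 0.

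Related genes outside the 34 were read from lists chosen by pathway. Their counts stand beside shares over all genes of 21.3% higher and 24.1% lower in wild type. In the knockout these shares were 21.9% and 26.1%. Of 11 tested genes for other isoforms and sugar phosphate enzymes, 1 rose and 1 fell in wild type, and 3 rose and 2 fell in the knockout. Pgm2, a member of the phosphoglucomutase family, was the one that fell in wild type, at −1.07 (SE 0.21, adjusted p = 0.00178). Tigar, which lowers fructose 2,6-bisphosphate, rose by 1.14 (SE 0.19, adjusted p = 0.00075). Pklr, the liver pyruvate kinase, read 88.5 and 148.6, then 181 and 170, then 75.7 and 5.59, then 37.3 and 28.8. Its difference was −1.56 (adjusted p = 0.0779) in wild type, which did not pass, and −1.97 (SE 0.64, adjusted p = 0.0294) in the knockout, which did. The difference in response between the genotypes did not pass for Pklr, at −0.41 (adjusted p = 0.933). Most of its activated readings lay under the array medians. Of 7 further pentose phosphate genes, 0 rose and 2 fell, H6pd, the endoplasmic reticulum counterpart of G6pdx, at −0.92 (SE 0.20, adjusted p = 0.00385) and Rbks, ribokinase, at −1.32 (SE 0.29, adjusted p = 0.00423). Of 9 genes of gluconeogenesis and glycogen, 3 rose and none fell. Pck2, mitochondrial PEP carboxykinase, rose by 2.53. Gys1, glycogen synthase, rose from 43.9 and 100.9 to 530.2 and 536.9, and Pcx, pyruvate carboxylase, from 53.1 and 73.7 to 286.5 and 304.1. Naive readings of these 2 genes lay near the array medians of 64.1 to 86.2, so the size of their log2 difference depends on the offset of 16.

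Of 6 other pyruvate dehydrogenase regulators and components, Pdhx rose and Pdk2 fell in wild type. Of 18 genes of oxygen sensing and hypoxia response, 8 rose and none fell in wild type, and 13 rose and 2 fell in the knockout, where 21.3% and 21.9% of all genes rose. The difference in response between the genotypes passed for 0 of the 18 (limma), with a median of 0.27, and 7 had an unadjusted p under 0.05. Bnip3, a mitophagy receptor, rose by 4.78 (SE 0.23, adjusted p = 1.24e-07) in wild type. Egln3, an oxygen-sensing hydroxylase, rose by 4.47, and Vegfa, the vascular growth factor, rose from 2.66 and 39.9, below the array medians, to 509.6 and 582.2. Of 19 genes of the mitochondrial citrate cycle, 8 rose and 4 fell in wild type, beside 21.3% and 24.1% of all genes. Among them were Idh3a at 1.92, Sdha at −1.43 and Idh2 at −2.42.

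Between the genotypes no member passed the test in either state. In naive cells 0 of the 30 genes and 0 of their 66 probe sets were called, where 0.563% of all probe sets and 0.837% of genes were (86 higher and 68 lower in the knockout, 55.8% higher, or 72.7% with arrays centred on their medians). At an unadjusted p under 0.05 there were 4 of 30, Hk2, Aldoa, Pdk1 and Tkt, beside 12.1% of all probe sets. The array values of the 2 genotypes did not overlap for 6 of the 30, beside 38.2% of all probe sets and 39.7% of genes. The members were split evenly, 15 above and 15 below 0, with a median of −0.01. With arrays centred on their medians 22 lay above 0 and the median was 0.09.

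The 4 genes with an unadjusted p under 0.05 all read lower in naive knockout than in naive wild-type cells. Tkt came nearest to the threshold, the knockout's 12923 and 12487 standing below 18301 and 17924, a log2 difference of −0.51 (SE 0.10, adjusted p = 0.0539). It was called, at an adjusted p of 0.0439, when only probe sets at or above the array median on 6 of 8 arrays were tested. Hk2 read 343.6 and 327 in wild type and 208.4 and 221.8 in the knockout, at −0.60 (SE 0.15, adjusted p = 0.136). Aldoa read 11601 and 10783 in wild type and 8968 and 8315 in the knockout, at −0.37 (SE 0.11, adjusted p = 0.209). The summed granulocyte, macrophage, natural killer cell and platelet markers given above were higher on both naive knockout arrays than on both naive wild-type arrays. Of their genes, S100a8, S100a9, Ngp and Lcn2 of granulocytes and Klra8 of natural killer cells were called higher, Klra8 at 2.60 (SE 0.49, adjusted p = 0.0493). Of 6 tested platelet markers 4 read higher and 2 lower in naive knockout than in naive wild-type cells, and 0 were called. Itgb3 read 433.3 and 250.7 in wild type and 912.7 and 983.6 in the knockout. Pf4 read 97.7 and 168.6, then 38 and 86.3, and Ppbp 48.3 and 26.5, then 19.5 and 4.78. The part of these cell types here was not tested.

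For 25 of the 30 genes the 95% interval of the naive difference lay within 1 log2 unit of 0, that is, within a 2-fold change in either direction. The exceptions were Hk1, Bpgm, Pfkfb3, Pfkfb4 and Hif1a. For Hif1a the interval was −0.01 to 1.10, and its naive knockout arrays read 2545 and 4863. With the first of these arrays left out, which leaves a lone array in the group, the Hif1a difference was 1.01. The remaining array also read higher than the first on every measured granulocyte marker but Elane, with S100a8 at 6941 beside 1354. The part of other cell types in the Hif1a reading was not tested.

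In activated cells 0 of the 30 genes and 0 of 66 probe sets were called, where 0.216% of all probe sets and 0.289% of genes were (52.5% of these calls higher, or 64.5% with arrays centred on their medians). At an unadjusted p under 0.05 there were 4, Aldoc, Tpi1, Pdk1 and Rpia, beside 10.5% of all probe sets. The 2 genotypes did not overlap for 21 of 30, beside 47% of all probe sets and 50.9% of genes. The differences leaned upward, with 23 of 30 above 0 and a median of 0.17, or 0.10 under quantile normalization, beside −0.01 over all genes. The Actb ratio was also higher on the activated knockout arrays, 7.44 and 11.1, than on the activated wild-type arrays, 5.98 and 5.9, and its part in this was not tested.

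Tpi1 read 20939 and 23314 on the activated wild-type arrays, under the knockout's 28203 and 27661, and differed by 0.34 (SE 0.12, adjusted p = 0.322). Pdk1 read 8343 and 10776 and 13719.5 and 12937 in the same 2 groups and differed by 0.49 (SE 0.13, adjusted p = 0.199), the smallest p among the members. Aldoc differed by 0.73 (SE 0.30, adjusted p = 0.429), and its dimmer probe set by −0.18. Rpia was the lower one in the knockout, at −0.34 (SE 0.15, adjusted p = 0.473). The intervals lay within 1 log2 unit of 0 for 26 of 30 genes, all but Hk1, Aldoc, Bpgm and Pfkfb4. Of the hypoxia list, Ero1a, an oxidoreductase of the endoplasmic reticulum, was higher in activated knockout cells, at 11666 ± 2133 in wild type and 22422 ± 217.9 in the knockout (SD, n = 2 each), a log2 difference of 0.95 (SE 0.15, adjusted p = 0.0337).

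**Figure D5:**
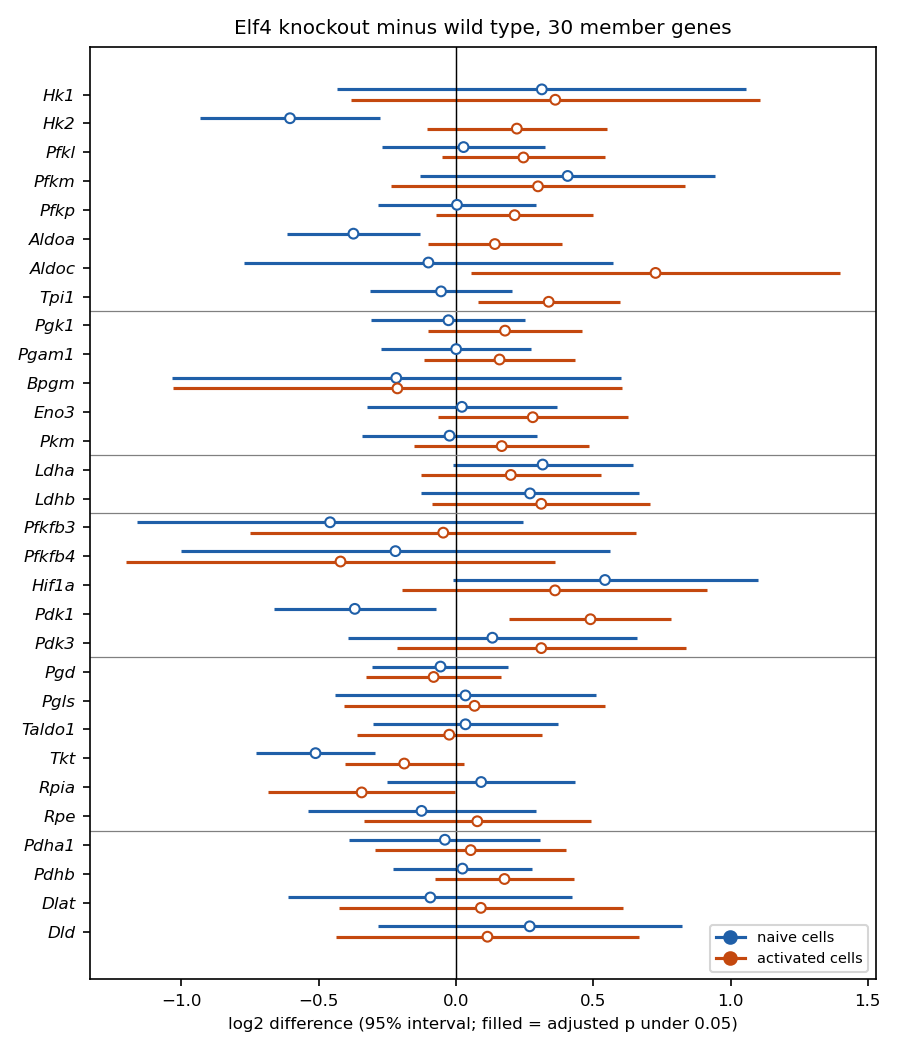
Log2 difference, knockout minus wild type, of each of the 30 tested genes in naive and in activated cells, with the 95% interval of the limma fit (2 arrays per group). No gene passed an adjusted p of 0.05. Tkt, Hk2 and Aldoa lie to the left of 0 in naive cells, and 23 of the 30 genes lie to the right in activated cells.

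The difference in activation response between the genotypes was tested directly. For 0 of 30 genes it passed, where 0.0585% of all probe sets and 0.0861% of genes did, and 5 had an unadjusted p under 0.05, Hk2, Aldoa, Tpi1, Pdk1 and Tkt, beside 9.74% of all probe sets. The 3 smallest p-values belonged to Pdk1, at 0.86 (SE 0.19, adjusted p = 0.142), Hk2, at 0.83 (SE 0.21, adjusted p = 0.212), and Aldoa, at 0.51 (SE 0.16, adjusted p = 0.291). Hk2 and Aldoa each read lower in naive knockout cells and higher in activated knockout cells than in the matching wild-type cells, with no overlap in either state. Arrays of the genotypes did not overlap for 39.7% of all genes in naive and 50.9% in activated cells. For 23 of the 30 genes the interval of the difference in response lay within 1 log2 unit of 0.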

How the data were processed

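Biotin-labelled total RNA of 8 samples was read on Affymetrix arrays. The deposited values are intensities made with MAS5 per the submitters' processing notes, scaled by the authors, as the values show, to a 2% trimmed mean of 500 on each array. Array medians were 64.1 to 86.2, there were no missing values, and precision is limited by 2 arrays per group. Probe sets were named through the platform annotation, with 34754 of 34958 single symbols updated through Entrez numbers. The 932 probe sets with several symbols and the 64 control probe sets were not used, except Gapdh and Actb controls. Probe sets at or above the array median on 2 of 8 arrays were tested on log2(intensity + 16), so log2 differences of dim genes are understated. The test used limma 3.58.1 in R 4.3.3 (lmFit, eBayes with trend, 4 group means, 4 residual and 6.7 prior degrees of freedom, two-sided). Fold changes are ratios of mean intensity. The members and lists were chosen with earlier results of these data known, so lists have counts and medians and no test. Members, the strongest genes of each list and any called by genotype are named. Replicate numbers were not taken as pairs, since deviations of same-numbered arrays correlated between −0.167 and 0.069. Protein sequences were not used here. Alternatives covered offset, filter, scaling, probe set choice, model and each array left out.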

Additional observations from a re-analysis of the deposited data

Results flagged for a closer look

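For 3 genes the genotype difference had opposite signs in naive and activated cells, with no overlap of the arrays in either state. Of all genes, 39.7% had no overlap between the genotypes in naive cells and 50.9% in activated cells. The share of all genes that met the whole rule was not computed, so the 3 genes are not set apart from it. The change in the knockout minus wild-type difference from naive to activated cells was 0.83 for Hk2 (adjusted p = 0.212), 0.51 for Aldoa (adjusted p = 0.291) and 0.86 for Pdk1 (adjusted p = 0.142), on the log2 scale and in limma's interaction test, so none passed.

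Pdk1 also moved in opposite directions with activation, down on both wild-type arrays and up on both knockout arrays, and the difference is the same 0.86. Its 3 dimmer probe sets gave interaction values of 0.78, 0.28 and 0.15, and none of these passed.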

How the results depend on the processing

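Values here are counts of calls over all probe sets unless a gene is named. The 4 groups hold 2 arrays each, activation is confounded with sex, array series and RNA integrity, and depth does not apply to arrays. Of the members called in activation, 17 of 22 in wild type kept their call under every alternative scored by gene, the Actb covariate aside. In the knockout 19 of 22 did. The added rule of a log2 difference of at least 1 was not scored by gene, and calls with smaller differences fail it. Leaving out 1 array, where the lone array of its group is assumed to vary like the other groups, gave 27 to 235 calls for naive genotype (0 to 1 members higher, this 1 being Hif1a without the first naive knockout array), 8 to 103 for activated genotype, 0 to 84 for the interaction, 7746 to 10849 (1 to 3 members lower) for wild-type activation and 8458 to 12184 for knockout activation. Without the first naive wild-type array Pdha1 turned to 0.011 in wild type (lowest value without 1 array −0.412), and without the first activated knockout array Pdhb turned to 0.003 in the knockout (lowest −0.153).

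The counts of naive genotype calls were 102 with no filter, 3 without a trend, 5 with only the 4 arrays of the comparison and 18 with the Actb ratio, and 1 member was lower with the filter at 6 of 8 arrays. For activated genotype they were 31 with arrays centred, 7 without a trend, 734 with 4 arrays, none of them members, and 6 with the Actb ratio. Interaction calls were 26 with an offset of 64, 0 without a trend and 0 with the Actb ratio. With the replicate number as a block, counts were 108 naive, 26 activated, 10305 and 11014 for activation and 14 for the interaction, and member calls did not change (19 and 3, 20 and 2, 0 by genotype). A crossed block, chosen after seeing the data, gave 134 naive and 52 activated calls and 0 members. With the Actb ratio, activation calls were 484 in wild type and 0 in the knockout, with 4 and 0 members higher and 0 lower.

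Members lower in wild-type activation numbered 1 with arrays centred, 1 without a trend and 1 with a log2 difference of at least 1 also required. In the knockout they numbered 4 with the mean of all probe sets and 1 with the 1-unit rule. Signs turned for the next brightest probe set in Aldoc (activated genotype, −0.18), Hk1 (−0.06 wild type, −0.38 knockout), Pfkfb3 (−1.01, −1.51), and in the knockout Pdk1 (−0.12), Pdha1 (0.63) and Pdhb (0.079). With the mean of all probe sets they turned for Pfkfb3 (−0.39, −0.43) and in the knockout for Pdk1 (−0.49, adjusted p = 0.0386), Pdha1 (0.26) and Pdhb (0.002). With arrays centred, Pdha1 was 0.013 and Pdhb 0.045 in the knockout. With the Actb ratio, Pdha1 was 0.33 in wild type, and in the knockout Bpgm was 0.13, Rpia −0.36 and Pdha1 0.75. The cause was not tested.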
